A study of Rattus norvegicus with 96 samples.

Results

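Gene expression in the nucleus accumbens shell (NAc shell) of ethanol-drinking alcohol-preferring P rats was compared between 24 h and 1 h after the last drinking episode. The comparison held 21 of the 96 arrays of the series, chosen by the region, the ethanol label and the time given in the array titles: 11 arrays at 24 h (title numbers 52 to 62) and 10 arrays at 1 h (title numbers 32 to 41). The P rat is a line bred for high voluntary alcohol intake, and the series title describes the exposure as binge drinking. For reference, the study also held 5 NAc shell arrays at 24 h and 7 at 1 h from P rats labelled water, which had no ethanol. There were 10 ethanol and 5 water NAc shell arrays at 6 h. The central nucleus of the amygdala (CeA) of ethanol rats had 10 arrays at 24 h and 11 at 1 h. The amount drunk, the sex and the age of the rats were not given in the sources used here. The labels list each array as its own sample but do not say which arrays came from separate rats, so p values measure the spread between these arrays.

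The NAc shell is part of the ventral striatum. Most of its neurons are GABAergic medium spiny neurons that carry dopamine D1 or D2 receptors, receive dopamine from the midbrain and take part in reward and in the drive to drink. Repeated drinking acts in this region on dopamine, opioid, glutamate and stress hormone signalling. The hours after a session cover the clearance of ethanol and the return toward the next session. The comparison asks which transcripts differ between 24 h and 1 h after drinking. A change that is equal at both times cannot be seen in it.

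The tissue carried the transcripts of striatum. On the log2 scale of the arrays, mean values over the 48 NAc shell arrays were 14.42 for Penk (proenkephalin), 13.85 for Bcl11b (a transcription factor of medium spiny neurons), 13.74 for Drd1 (the D1 dopamine receptor) and 13.28 for Ppp1r1b (DARPP-32, a dopamine-regulated phosphatase inhibitor). Drd1 lay above 99.3% of the probe sets that carry a single gene symbol. Listed markers of cortical and amygdalar neurons were lower than these. Slc17a7, the cortical vesicular glutamate transporter, was at 6.87, Emx1 at 6.79, Neurod6 at 5.89 and Tbr1 at 5.14. The 5 members bright enough to test were Nrn1 (8.28), Cux2 (8.11), Slc17a6 (8.10), Neurod2 (7.96) and Fezf2 (7.46).

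Array medians over the NAc shell were 7.78 to 7.86 log2. Arrays 55 and 59 at 24 h and array 33 at 1 h had a median correlation with the other NAc shell arrays more than 3 scaled median absolute deviations low. They stayed in the main comparison, and values without them and without the low ethanol 6 h arrays 43 and 44 are given beside many of the lists and genes. RNA quality, read as the 3′ minus 5′ difference of control probe sets, was close at both times. For Gapdh it was 1.83 ± 0.259 log2 at 24 h and 1.73 ± 0.237 at 1 h (SD, n = 11 and 10), a difference of 0.0958 (two-sided permutation p = 0.387, adjusted over 2 transcripts 0.774). For beta-actin it was 3.14 ± 0.267 at 24 h and 3.16 ± 0.158 at 1 h (permutation p = 0.849).

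Between 24 h and 1 h, 0 of 18625 probe sets passed an adjusted p of 0.05 (0% called; limma with Benjamini-Hochberg adjustment), and the smallest adjusted p was 0.9987. At an unadjusted p under 0.05 there were 522 probe sets (2.8%), of which 246 (1.32%) were higher at 24 h and 276 (1.48%) lower. This share lies below the threshold of 0.05 itself, which is the share that evenly spread p values would give. The middle of the distribution sat at no difference: the median was -0.002 log2 and 49% of the differences were above 0. For no probe set did all 24 h arrays lie on one side of all 1 h arrays.

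The size of the differences was bounded by the data. The median standard error of a difference was 0.084 log2, and its median size was 0.056. The 95% interval lay wholly inside ±0.25 log2 (1.19-fold) for 56.9% of probe sets, inside ±0.5 (1.41-fold) for 95.2% and inside ±1 (2-fold) for 99.8%. Thus 903 probe sets had an interval that reached 0.5, and 37 had one that reached 1. Differences larger than 0.5 were measured for 15 probe sets, and 0 of these passed.

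**Figure D1:**
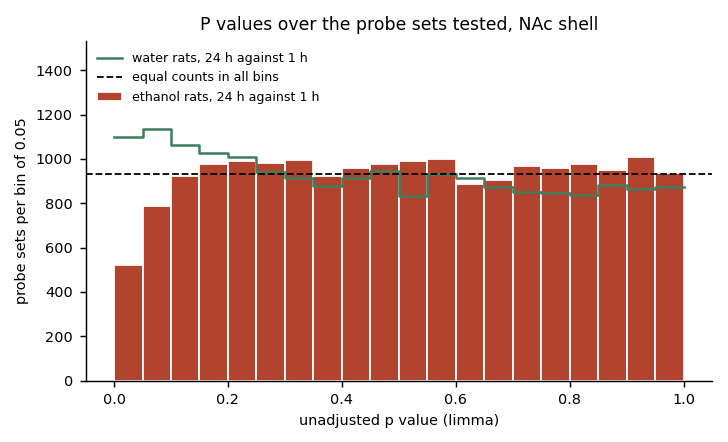
Number of probe sets (y axis) in bins of the unadjusted limma p value (x axis) for 24 h against 1 h in the NAc shell. Bars are ethanol rats, the line is water rats, and the dashed line marks equal counts in all bins. The first bin holds 522 probe sets in ethanol rats and 1098 in water rats.

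The genes with the smallest p values were examined although none passed. They were chosen from these same arrays. Counts of arrays above or below the 1 h median, here and for later genes, partly follow from that choice. Such counts have no share over all probe sets beside them and are no further support. Fli1 (1393249_at), an ETS-family transcription factor, had values of 7.52, 7.92 and 8.85 log2 at 24 h (lowest, median and highest array), against 7.27, 7.59 and 7.92 at 1 h. The groups overlapped, but 9 of 11 arrays at 24 h lay above the 1 h median. The difference was 0.42 ± 0.12 log2 (SE, unadjusted p = 0.00127), and 0.23 ± 0.09 without the low arrays. A second Fli1 probe set gave 0.04. Zfp334 (1374274_at), a zinc-finger protein, was at 7.87, 8.04 and 8.19 at 24 h and at 7.70, 7.82 and 7.99 at 1 h. All 11 arrays at 24 h lay above the 1 h median, with a difference of 0.20 ± 0.06.

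Tpm3 (1387617_at), a tropomyosin of the actin cytoskeleton, read 7.004, 7.51 and 7.91 at 24 h, against 6.69, 7.10 and 7.33 at 1 h. Its difference was 0.38 ± 0.11, yet the 6 other Tpm3 probe sets read between -0.43 and 0.02, 3 of them lower with p under 0.05. The probe sets of this gene therefore disagreed in direction. The other genes measured higher at 24 h were Thoc7 (0.28 ± 0.09), a subunit of the THO mRNA export complex, Dnm3 (0.25 ± 0.08), a dynamin of membrane fission, and Med21 (0.20 ± 0.07), a Mediator subunit. They also included the RNA-binding protein gene Strbp (0.15 ± 0.05), the histone methyltransferase gene Nsd2 (0.21 ± 0.07), Gmfb (0.38 ± 0.13), which encodes glia maturation factor beta, and Rabgef1 (0.18 ± 0.06), an exchange factor for an endosomal Rab GTPase.

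Among genes measured lower at 24 h, Hdac4 (1376761_at), a histone deacetylase that shuttles between nucleus and cytoplasm, was at 8.66, 8.84 and 9.11 at 24 h and at 8.83, 9.06 and 9.32 at 1 h. Of the 24 h arrays, 10 of 11 lay below the 1 h median, and the groups overlapped. The difference was -0.21 ± 0.06 log2 (SE, unadjusted p = 0.00196). Spindoc (1384084_at), a docking protein of the chromatin reader Spin1, read 7.01, 7.16 and 7.24 at 24 h, against 7.06, 7.28 and 7.45 at 1 h. Its difference was -0.16 ± 0.05. All 11 arrays at 24 h lay below the 1 h median, as they did for the splicing factor gene Prpf18 (-0.19 ± 0.06) and for Fbxl12 (-0.15 ± 0.05), an F-box subunit of a ubiquitin ligase. Pla2g6 (1377408_at), a calcium-independent phospholipase, differed by -0.29 ± 0.09, and its 2 other probe sets read -0.13 and -0.15. The remaining genes were Igf1r (-0.26 ± 0.09), the receptor of insulin-like growth factor, Steap3 (-0.20 ± 0.06), an endosomal ferrireductase, Eif2b5 (-0.17 ± 0.06), a subunit of a translation initiation factor, Supt3h (-0.15 ± 0.05), a subunit of a histone acetyltransferase complex, and Ccdc77 (-0.15 ± 0.05).

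When the low arrays were left out, the 20 genes kept their sign, 14 kept an unadjusted p under 0.05 and the difference shrank by more than 1.5 times for 7. Beside Fli1 these were Gmfb (0.21), Med21 (0.11), Strbp (0.09), Pla2g6 (-0.17), Prpf18 (-0.10) and Ccdc77 (-0.07). Of these 20 genes, 11 had 19 further probe sets, and 11 of the 19 had the same sign. Beside those given above, the other probe set read 0.01 for Gmfb (mean level 13.43), 0.11 for Thoc7 (mean level 12.35) and 0.04 for Rabgef1. It read -0.11 for Strbp, 0.20 for Med21, -0.13 for Igf1r and -0.12 for Eif2b5. Those of Nsd2 read -0.01, -0.23 and 0.12. Several of the differences higher at 24 h thus rest on a single probe set of the gene. The smallest p of any probe set belonged to 1396854_at, which carries no gene symbol. It read 8.85, 9.70 and 10.31 at 24 h and 8.70, 9.18 and 9.38 at 1 h, a difference of 0.44 ± 0.12 (unadjusted p = 0.000796).

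**Figure D2:**
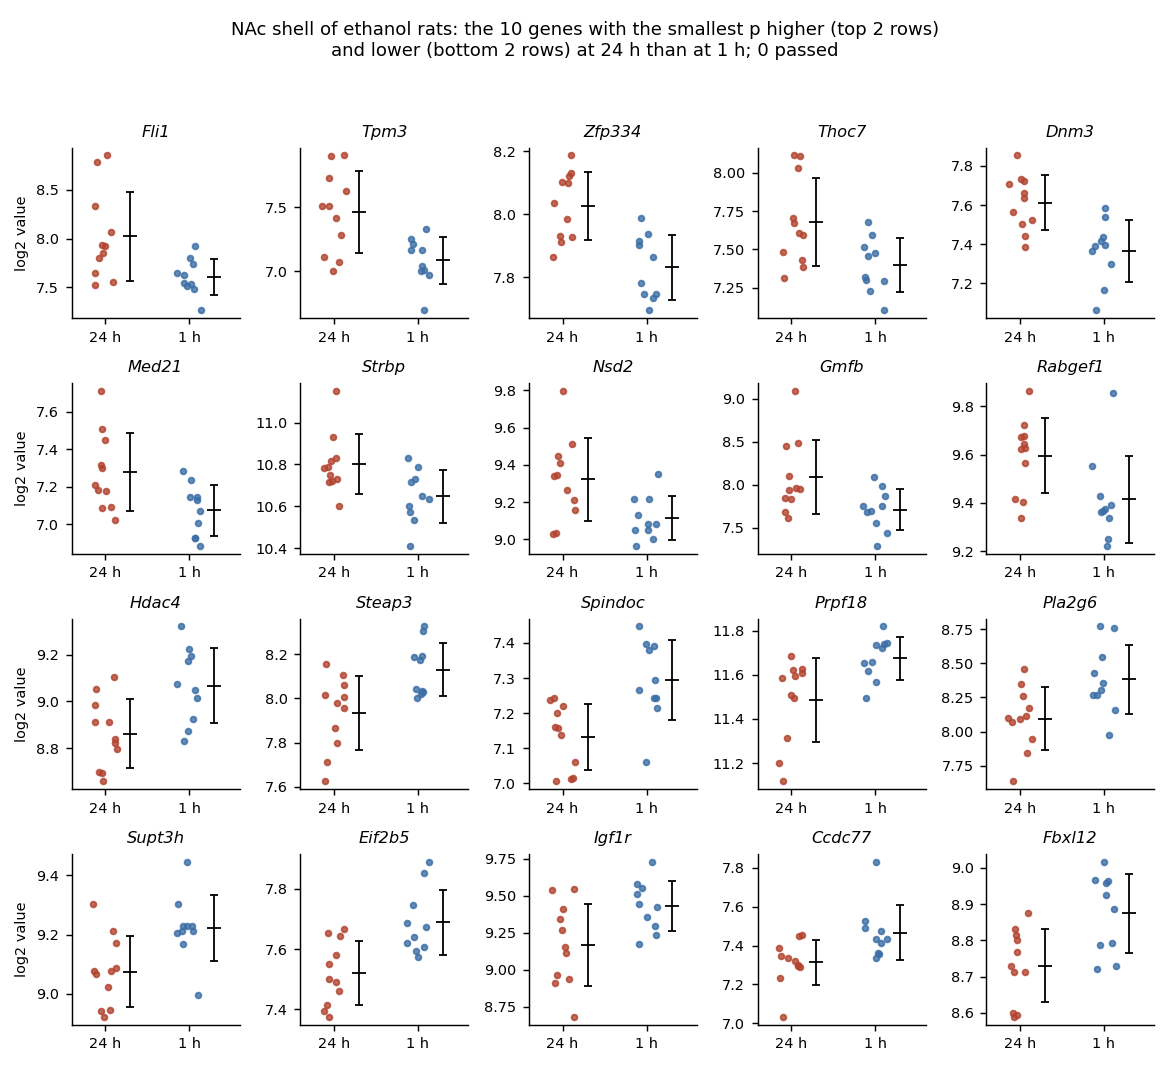
Log2 array values (y axis, its range set for each gene) of the 10 genes with the smallest p measured higher at 24 h (top 2 rows) and the 10 measured lower (bottom 2 rows) in the NAc shell of ethanol rats. Each point is 1 array, 24 h left and 1 h right, with the mean and SD beside it. The groups overlap for every gene, and 0 genes passed.

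The largest differences, picked after their values were seen, lay in genes whose levels varied widely between arrays. Dgkb (1387224_at), a diacylglycerol kinase abundant in striatum, was at 9.84, 12.86 and 13.90 at 24 h, against 12.36, 13.05 and 13.93 at 1 h. The medians were near each other, while the SD was 1.57 at 24 h and 0.43 at 1 h. The difference of means was -0.82 ± 0.36 (95% interval -1.53 to -0.10) in the limma fit. That fit shares its estimate of the spread over all 6 groups, so the interval may be too narrow for SDs this unequal. Ezh1, a histone methyltransferase of Polycomb, differed by -0.65 ± 0.50 and Kif15, a kinesin, by -0.63 ± 0.29. The one difference over 1, 1.10 ± 0.79 for the unnamed 1379859_at, came with 1 h values of 5.90, 10.17 and 11.01.

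The wider spread at 24 h was general. The median SD over probe sets was 0.215 log2 at 24 h (n = 11) and 0.176 at 1 h (n = 10), and 72.6% of probe sets had the larger SD at 24 h. Without the low arrays the medians were 0.192 at 24 h and 0.163 at 1 h. In water rats they were 0.160 at 24 h and 0.162 at 1 h. These spreads are a description and were not tested. The limma fit shares its estimate of the spread over all 6 groups, so its standard errors and intervals do not carry the wider spread at 24 h.

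Glucocorticoid hormones, released in stress and with the daily rhythm, act through a nuclear receptor that switches on a set of target genes in most cells. In this list 0 of 17 genes passed and 12 of 17 were above 0 (70.6%, beside 49% of all probe sets). The median difference was 0.11, beside -0.002 over all probe sets. Water rats also had 12 of 17 above 0, with a median of 0.04. Sgk1 (1367802_at), a kinase that regulates ion channels and transporters, was at 11.98, 12.62 and 13.27 at 24 h and at 11.85, 12.37 and 12.69 at 1 h. Of the 24 h arrays, 8 of 11 lay above the 1 h median and the groups overlapped. The difference was 0.31 ± 0.13 (SE, unadjusted p = 0.0181). Pdk4 (1378074_at), which turns metabolism from glucose toward fat by inhibiting pyruvate dehydrogenase, read 7.76, 9.25 and 10.55 at 24 h, against 8.28, 8.75 and 9.57 at 1 h. Its difference was 0.49 ± 0.21. Not all targets went that way: Irs2, an insulin receptor substrate, differed by -0.22, and Fkbp5, a co-chaperone of the receptor and a common marker of its activity, by 0.02. When the low arrays were left out, 9 of 17 were above 0 with a median of 0.03, Sgk1 differed by 0.26, Pdk4 by 0.52 and Fkbp5 by -0.17.

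Against 6 h the same 2 genes did pass. Sgk1 averaged 12.33 ± 0.23 log2 at 1 h, 11.71 ± 0.28 at 6 h and 12.64 ± 0.40 at 24 h (SD, n = 10, 10 and 11). It rose by 0.93 ± 0.13 between 6 h and 24 h (limma adjusted p = 4.5e-05). Pdk4 averaged 8.83 ± 0.39 at 1 h, 8.12 ± 0.37 at 6 h and 9.32 ± 0.76 at 24 h, with a rise of 1.20 ± 0.21 over 6 h (adjusted p = 0.0051). In all, 10 probe sets passed between 24 h and 6 h (0.0537% called), 9 of them higher at 24 h. They included Nfkbia, the inhibitor of NF-kappaB and another glucocorticoid target (0.54, adjusted p = 0.0369), the cold-inducible RNA-binding protein gene Rbm3 (0.42), the kinase gene Stk17b (0.47) and the phosphoinositide phosphatase gene Mtmr2 (0.30), while the chaperonin-like Mkks fell by 0.24. Between 6 h and 1 h, 2 probe sets passed (0.0107% called), 1378261_at and 1390223_at, neither with a symbol. These comparisons share their 24 h or 1 h arrays with the main one. Without the low arrays 2 probe sets passed between 24 h and 6 h, Sgk1 still among them (0.78, adjusted p = 0.00589) while Pdk4 (1.07, adjusted p = 0.114) and Nfkbia (0.39, adjusted p = 0.441) did not pass. Nfkbia also missed the threshold in 11 of the 21 fits that left out 1 array at 24 h or 6 h, with adjusted p up to 0.0963 (without 24 h array 55). With single arrays left out the count was 5 to 12, the lowest counts being 5 without 6 h array 44, 49 or 51 and 6 without 6 h array 43 or 24 h array 59.

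Clock genes form a feedback loop in which Clock and Bmal1 switch on their own repressors, the Per, Cry and Nr1d genes, through the E-box letters CACGTG. Of 19 clock genes tested at 24 h against 1 h, 0 passed, 11 were above 0 and the median was 0.03. Csnk1e, a kinase that marks Per proteins for breakdown, differed by -0.23 and Nfil3, a repressor of the loop's outputs, by 0.16. With the low arrays left out, 7 of 19 were above 0 and the median was -0.03, while Csnk1e differed by -0.15 and Nfil3 by 0.08. The loop's outputs, picked after their values were seen, lay close at these 2 times and lower at 6 h. Dbp, an output transcription factor, averaged 11.005 ± 0.18 at 1 h, 10.65 ± 0.20 at 6 h and 10.99 ± 0.24 at 24 h. Its difference between 24 h and 1 h was -0.02 ± 0.09. For Nr1d1, the repressor REV-ERB alpha, the means were 8.35 ± 0.17 at 1 h, 8.06 ± 0.19 at 6 h and 8.41 ± 0.25 at 24 h. For Nr1d2, its partner repressor, they were 12.76 ± 0.11, 12.54 ± 0.17 and 12.80 ± 0.16 at the same times. No clock gene passed against 6 h either, with adjusted p of 0.114 for Nr1d1 and 0.234 for Dbp at 24 h.

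Promoter sequence was available for 16 of the 19 clock genes in RefSeq (GRCr8, 250 bases before to 50 after each start). CACGTG, which reads the same on both strands, stood in the promoters of 4 of them, Nr1d1, Bhlhe40, Bhlhe41 and Tef, and in 6.4% of the 33469 promoter windows of the table. The 2 windows below are shown because these genes were lower at 6 h than at 1 h by 0.28 (Nr1d1) and 0.53 log2 (Bhlhe40, a repressor that binds the same letters), neither passing. At 24 h they differed from 1 h by 0.07 and -0.24. Capitals mark CACGTG. The Nr1d1 window is chr10:84229405-84229704 on the minus strand and the Bhlhe40 window is chr4:143174200-143174499 on the plus strand.
Nr1d1: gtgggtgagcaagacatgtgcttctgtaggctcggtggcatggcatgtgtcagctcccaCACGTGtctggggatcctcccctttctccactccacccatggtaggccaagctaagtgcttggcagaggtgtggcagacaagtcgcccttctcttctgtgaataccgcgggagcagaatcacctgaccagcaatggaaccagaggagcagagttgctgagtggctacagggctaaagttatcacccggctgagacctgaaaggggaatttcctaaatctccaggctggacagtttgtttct
Bhlhe40: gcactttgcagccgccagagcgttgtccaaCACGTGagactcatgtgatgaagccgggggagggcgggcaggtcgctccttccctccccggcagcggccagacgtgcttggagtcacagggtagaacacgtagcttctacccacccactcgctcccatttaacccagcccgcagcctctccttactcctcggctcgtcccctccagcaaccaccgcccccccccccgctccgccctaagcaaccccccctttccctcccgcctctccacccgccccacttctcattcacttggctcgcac
The letters describe these windows and are not evidence of binding. A full glucocorticoid response element, searched as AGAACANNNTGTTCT on both strands, was in 5 windows of the table (0.015%) and in none of the promoters found for 15 of the 17 glucocorticoid-induced genes.

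**Figure D3:**
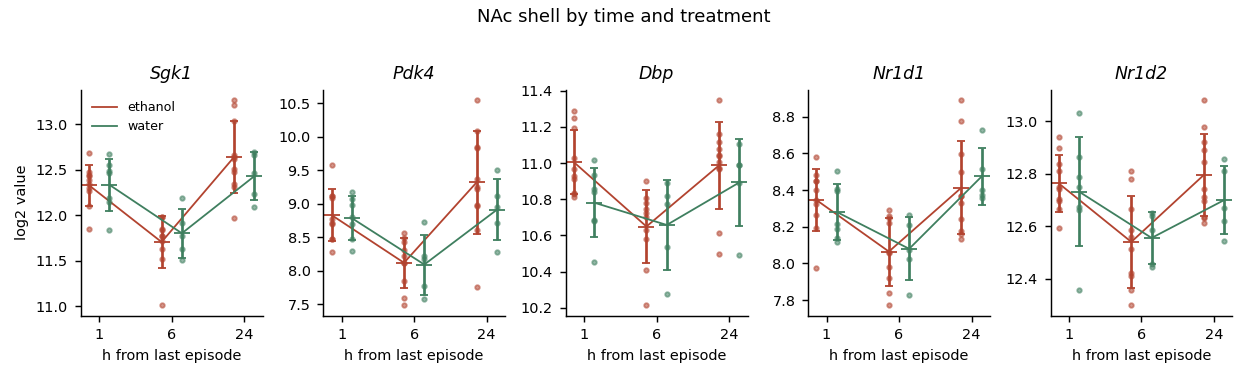
Log2 array values (y axis, its range set for each gene) of Sgk1, Pdk4, Dbp, Nr1d1 and Nr1d2 at 1, 6 and 24 h after the last episode (x axis) in the NAc shell. Points are arrays of ethanol and water rats, bars are mean and SD, and lines join the means. In ethanol rats all 5 genes have their lowest mean at 6 h, and Sgk1 and Pdk4 passed between 24 h and 6 h.

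Medium spiny neuron and dopamine genes showed how far 3 arrays can move a list. Of 21 genes, 0 passed, 11 were above 0 and the median difference was 0.00. Drd1 differed by -0.02, Drd2 by -0.06, the adenosine receptor gene Adora2a by -0.02 and Penk by 0.00. The mean of the 21 genes ran from 11.57 to 12.82 log2 over the 24 h arrays and from 11.58 to 12.69 over the 1 h arrays. The low arrays held extremes in opposite directions: array 55 at 24 h had the highest mean of its group (12.82), array 59 was at 12.61, and array 33 had the lowest mean at 1 h (11.58). Without them 0 of 21 were above 0, against 42.1% of all probe sets, and the median was -0.15. The 9 striatal markers did likewise, with a median of -0.02 over all arrays and -0.20 without the low ones. Arrays 57 and 61 at 24 h had the lowest means of the 21 genes in their group (11.57 and 11.95). They were not low in correlation and stayed in, so the shift depends on which arrays are left out. In tissue of mixed cells, the share of medium spiny neurons and their RNA per cell cannot be told apart.

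Immediate early genes, which neurons switch on within minutes of activity, gave 0 of 17 passing, 5 above 0 and a median of -0.05. Fos differed by -0.15, Arc by -0.14 and Egr1 by 0.11. The smallest p was for Dusp6, a phosphatase that turns off ERK kinases, which read 9.38, 9.53 and 9.83 at 24 h, against 9.46, 9.74 and 10.60 at 1 h (difference -0.24 ± 0.12). Its highest value was 1 array at 1 h. Without the low arrays 1 of 17 was above 0 and the list's median was -0.23, beside -0.01 over all probe sets. Fos then differed by -0.34, Arc by -0.38 and Egr1 by -0.10, none of them passing.

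Receptor and synapse lists had medians between -0.04 and 0.00 over all arrays, beside -0.002 over all probe sets. In opioid and other neuropeptide genes 4 of 11 were above 0 (median -0.02), with 0.15 for the peptide gene Npy and -0.18 for Oprl1, the nociceptin receptor. GABA genes had 4 of 12 above 0 (median -0.04). Gabbr1, a subunit of the metabotropic GABA receptor, differed by -0.20 ± 0.08 at 1388039_a_at, while its other probe sets read -0.08 and 0.01. Glutamate receptor and postsynaptic genes had 8 of 20 above 0 (median -0.02), vesicle release genes 7 of 18 (median -0.03) and potassium channel subunits 13 of 24 (median 0.00). The channel subunit gene Kcnj6 had the widest difference of these lists, -0.62 ± 0.36, and its other probe set read 0.01. In all 5 lists 0 genes passed. With the low arrays left out, fewer members of each list were above 0: 1 of 11 neuropeptide genes (median -0.20), 2 of 12 GABA genes (median -0.05), 3 of 20 glutamate receptor and postsynaptic genes (median -0.07), 5 of 18 vesicle release genes (median -0.04) and 8 of 24 potassium channel subunits (median -0.02), beside 42.1% of all probe sets (median -0.01).

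Genes of the respiratory chain and ATP synthase, which make ATP in mitochondria, were more often above 0 than below it, while those of the citric acid cycle and glycolysis were not. In the respiratory chain and ATP synthase 0 of 60 genes passed, 45 were above 0 (75%, beside 49% of all probe sets) and the median was 0.06. Cox5a, a subunit of cytochrome oxidase, read 8.38, 8.80 and 9.72 at 24 h, against 8.36, 8.67 and 8.92 at 1 h, a difference of 0.31 ± 0.12. Atp5mg, a subunit of ATP synthase, differed by 0.29 ± 0.12, with 10 of 11 arrays at 24 h above the 1 h median. The groups overlapped for both genes. Leaving out the low arrays put 36 of 60 above 0, with a median of 0.02, and Cox5a then differed by 0.16 and Atp5mg by 0.15. In water rats 36 of 60 were above 0 with a median of 0.04. Of the citric acid cycle and glycolysis genes 9 of 27 were above 0 (median -0.04).

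Lists of the protein machinery were small in size. Cytosolic ribosomal proteins had 21 of 29 above 0 (median 0.04) and proteasome subunits 15 of 30 (median 0.00), among them Psmd14, a deubiquitinating subunit, at 0.19 ± 0.07. RNA splicing factors had 12 of 41 above 0 (median -0.04) and chromatin enzymes 10 of 25 (median -0.04), among them Hdac4 above and the acetyltransferase gene Kat7 at -0.18 ± 0.08. Endoplasmic reticulum chaperones had 10 of 26 above 0 (median -0.03). Hyou1, one of these chaperones, was at 8.39, 9.17 and 9.53 at 24 h and at 9.03, 9.36 and 9.91 at 1 h (difference -0.31 ± 0.12, and -0.16 without the low arrays). Hsp90ab1, a cytosolic chaperone, differed by -0.30 ± 0.14, and Hspa1a, an inducible one, by 0.25 ± 0.14. In each of these lists 0 genes passed.

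Other lists had medians between -0.04 and 0.01 over all arrays. Kinase, CREB and BDNF genes had 14 of 25 above 0 (median 0.01), interferon-regulated genes 6 of 12 (median 0.01), inflammatory genes 4 of 10 (median -0.04) and antioxidant enzymes 11 of 24 (median -0.01). Genes that handle ethanol, aldehyde and acetate had 6 of 14 above 0 (median -0.02), and cholesterol genes 13 of 19 (median 0.01). Again 0 genes passed. Without the low arrays 9 of 12 interferon-regulated genes were above 0 (median 0.06), beside 42.1% of all probe sets. Above 0 were then 10 of 25 kinase, CREB and BDNF genes (median -0.04), 2 of 10 inflammatory genes (median -0.05) and 15 of 24 antioxidant enzymes (median 0.01). Ethanol, aldehyde and acetate genes had 7 of 14 above 0 (median -0.01) and cholesterol genes 12 of 19 (median 0.02).

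**Figure D4:**
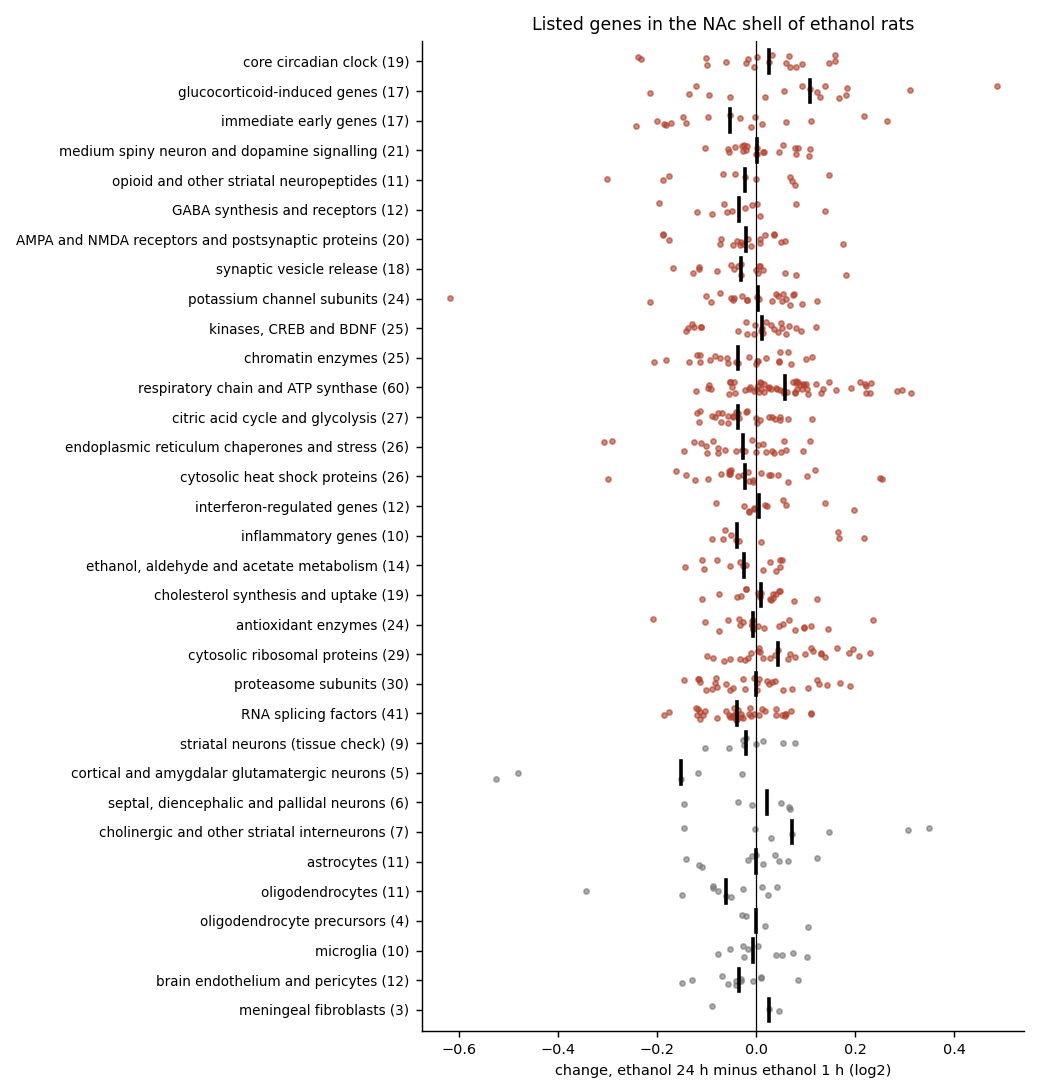
Difference between 24 h and 1 h (log2, x axis) of each tested gene in the NAc shell of ethanol rats, by gene list (y axis, number of genes in brackets, lists of at least 3 genes). Red points are pathway and tissue genes, grey points cell type markers, and black bars list medians. Most points lie within 0.25 of 0, and 0 genes passed.

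Markers of other cell types were read as a check of the dissection. Astrocyte markers had 5 of 11 above 0 (median 0.00), microglia 5 of 10 (median -0.01), vessels 3 of 12 (median -0.04) and oligodendrocytes 3 of 11 (median -0.06, and 0.06 without the low arrays). The summed level of 5 cortical and amygdalar neuron markers was 9.59 to 11.61 log2 over the 24 h arrays and 9.92 to 12.09 over the 1 h arrays. All 5 were below 0, with Nrn1 at -0.48 ± 0.32 and Slc17a6, a vesicular glutamate transporter of subcortical neurons, at -0.53 ± 0.53. Without the low arrays Slc17a6 read 0.08. Slc5a7, the choline transporter of cholinergic interneurons, differed by 0.35 ± 0.16, and by 0.20 without the low arrays. Hbb, a globin of red blood cells and the only one of 7 blood markers bright enough to test, differed by 0.27 ± 0.12. Above 0 were also 5 of 7 interneuron, 3 of 6 septal, diencephalic and pallidal, 2 of 4 oligodendrocyte precursor, 2 of 3 meningeal and 1 of 2 choroid plexus markers. Without the low arrays 4 of 4 precursor markers were above 0. The part of these cells in the results above was not tested.

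Over the same hours, water rats also had 0 probe sets passing (0% called), with 1098 at an unadjusted p under 0.05 (5.9%), 340 of them (1.83%) higher at 24 h and 758 (4.07%) lower. Of all differences in water rats, 50.1% were above 0. The smallest p values belonged to Snd1 (-0.29 ± 0.07), a nuclease of RNA processing, Rbbp5 (-0.33 ± 0.08), a subunit of histone methyltransferase complexes, Cdc123 (-0.54 ± 0.14), an assembly factor for translation initiation, and Mrto4 (-0.27 ± 0.07), a ribosome assembly factor. In ethanol rats these 4 read -0.05, -0.12, -0.11 and 0.05 in that order. Second probe sets of Rbbp5 and Mrto4 read -0.07 and -0.19 in water rats. The Gapdh end difference of water rats was 2.007 ± 0.285 log2 at 24 h and 1.62 ± 0.0847 at 1 h (SD, n = 5 and 7), wider apart than the 1.83 and 1.73 of ethanol rats. A fit with this end difference as a covariate also had 0 probe sets passing in water rats. Its count at an unadjusted p under 0.05 is not given here.

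The test of the difference between treatments, ethanol minus water of the 24 h minus 1 h differences, passed for 0 of 18625 probe sets, while 262 (1.41%) had an unadjusted p under 0.05. Its smallest p values were for Mrto4 (0.32 ± 0.09), the potassium channel gene Kcnc4 (-0.30 ± 0.09), Ndufaf7 (0.31 ± 0.09), a complex I assembly factor, and Steap3 (-0.32 ± 0.10). A second Mrto4 probe set read -0.11 in ethanol rats and -0.19 in water rats. For Kcnc4 the second one read -0.10 and -0.07, and for Ndufaf7 0.01 and -0.13, in the same order. Steap3 read -0.20 in ethanol rats and 0.13 in water rats. Of the 20 genes with the smallest p in ethanol rats, 16 had the same sign in water rats. Their median size was 0.20 in ethanol rats, where they were chosen, and 0.09 in water rats. The share of equal signs over all probe sets was not counted, so the 16 only describe these genes. Sgk1 differed by 0.10 and Pdk4 by 0.12 in water rats, and the treatments did not differ beyond their error (0.22 ± 0.21 and 0.36 ± 0.35).

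In the CeA of ethanol rats 0 of 17572 probe sets passed for the same hours, and 902 (5.13%) had an unadjusted p under 0.05. The difference between the regions, NAc shell minus CeA, also passed for 0, and 267 (1.52%) had an unadjusted p under 0.05. Steap3 had the smallest p of this test, with -0.20 in the NAc shell and 0.17 in the CeA. Next came Fbxl20, an F-box protein of synapses (-0.18 in the NAc shell, 0.12 in the CeA), Col12a1, a collagen (-0.03 and 0.44 in the same order), and Syt12, a synaptotagmin (0.16 and -0.39). Of 17 of the 20 genes that could be read in both regions, 11 had the same sign. The share over all probe sets was not counted here either. Sgk1 and Pdk4 read 0.39 and 0.56 in the CeA, and for neither did the regions differ beyond the error (-0.08 and -0.07). No label ties the arrays of one region to rats of the other, and the fit took them as unrelated.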

How the data were processed

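The deposited table holds log2 values of Affymetrix rat arrays, 1 column per array, which the authors made by RMA, per the submitters' processing notes; the RMA version, scan dates and filters are not given in the sources used here. Per the labels, RNA was labelled by a 2-cycle protocol from 25 ng. Of 31099 probe sets, 57 controls were left out, and 20826 of the rest carried 1 gene symbol, 436 several and 9780 were unlisted. The members, gene lists and rules were chosen with earlier results of these data known.

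Probe sets with a mean above the 40th percentile of the 48 NAc shell arrays (7.09 log2) were tested, 18625 in all. A limma 3.58.1 fit in R 4.3.3 gave each of 6 groups a mean, with a variance trend on intensity and Benjamini-Hochberg adjustment. The difference between regions used all 96 arrays and 17572 probe sets. A list took the brightest probe set of each gene and was given no set test. End differences used 100000 permutations. Named were the 10 genes with the smallest p in each direction, the 4 with the smallest p in other comparisons and list members with the smallest p. The fit was tested on simulated data. The number of arrays limits the precision.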

Additional observations from a re-analysis of the deposited data

Results flagged for a closer look

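In groups of 4 to 10 arrays, 1 array stood apart from the others by more than Dixon's 95% limit in 28 of the 285 groups tested over 93 genes and the end differences, where chance flags about 1 in 20. The 11 arrays of ethanol rats at 24 h are too many for this test. Such values bear on the ethanol comparison where they lie in the 1 h group. Array 33 of ethanol rats at 1 h, one of the low arrays, was highest for Ccdc77 (7.83) and Sf3b2 (11.56) and lowest for Foxp2 (10.92) and for 1396854_at (8.70). Array 32 of ethanol rats at 1 h was highest for Dusp6 (10.60) and Syt12 (8.19), array 34 for Prkca (8.71) and array 36 for Rabgef1 (9.86).

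In water rats at 24 h, array 31 supplied 9 of the values that stood apart. It was lowest for Supt3h (8.89), Igf1r (8.93), Csnk1e (9.13), Kat7 (9.84), Hyou1 (8.61) and Rbbp5 (8.88), and highest for Rpl27 (13.41), Psmd14 (12.44) and Sf3b2 (10.94). Array 33 of water rats at 24 h was highest for Ifit2 (8.56) and lowest for Col1a2 (7.07), and array 34 was highest for Dnm3 (7.81). In water rats at 1 h, array 22 was highest for Rabgef1 (9.79) and lowest for Pla2g6 (7.60) and Syp (12.47), and array 19 was highest for Fli1 (8.03) and lowest for Foxp2 (11.56). Array 20 was highest for Spindoc (7.32) and Hspa1a (9.18), and array 24 for Nrn1 (8.88).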

How the results depend on the processing

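The counts of passing probe sets for ethanol, water, treatment difference and region difference were 0 under all 99 alternatives run: no filter or one at the 60th percentile, a second quantile normalization, array weights, the Gapdh end difference as a covariate, the low arrays or each array left out, an adjusted p of 0.10, no variance trend, and the ethanol arrays alone. The smallest adjusted p reached was 0.7396 in ethanol rats, 0.1345 in water rats, 0.9987 between treatments and 0.9988 between regions. Counts at an unadjusted p under 0.05 moved more. In ethanol rats they ran from 244 (without the low arrays) to 1237 (without ethanol 24 h array 54), with 274 without array 55, 279 without array 59, 804 without array 56 and 821 without array 57. They ran from 496 to 2146 in water rats (616 without water 24 h array 31, 642 without water 1 h array 18), from 99 to 819 between treatments and from 131 to 1014 between regions. These ranges pool filters that test different numbers of probe sets, so their ends are not like for like. With the main filter and arrays left out, the count between treatments ran from 185 (without water 1 h array 18) to 536 (without the low arrays). Of 2746 gene values under these alternatives, 2736 kept their sign and 0 passed. They cover the genes named by the rule and also Dbp, Nr1d1, Nr1d2, Dgkb, Ezh1 and Kif15, picked after their values were seen. The rule chose genes by their p in these same arrays. Another filter, no variance trend or the ethanol arrays alone leave a difference as it was (Dbp -0.01779 in each). The kept signs are therefore no independent support for these genes. Without the low arrays the sign turned for Arpp21 (-0.023), Foxp2 (-0.082), Npy (-0.011), Calb2 (0.074), Nr1d1 (-0.036) and the beta-actin end difference (0.00138), and Dbp read -0.05406 to 0.03091 with single arrays left out, turning sign without ethanol 1 h array 36 (0.01347), 37 (0.003459) or 38 (0.00911) or 24 h array 57 or 61 (0.01937); the cause was not tested. Among 162 probe sets, those of the rule and others named or singled out from the lists, 21 turned sign without the low arrays, among them also Egr1 (-0.10), Fkbp5 (-0.17), Slc17a6 (0.08), Tac1 (-0.26), Ptgs2 (-0.33), Ppp1r1b (-0.12), Npas2 (-0.076) and Klf9 (-0.078). Values of named genes, of gene lists, of the spread and of the 24 h against 6 h counts without the low arrays were added after seeing the data. No paired analysis was possible because the 24 h and 1 h arrays share no number.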
